A study of Mus musculus with 12 samples.

Results

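The AMPA and NMDA receptors, the main ion channels that open when glutamate is released at excitatory synapses, were followed through 10 of their subunit genes in RNA of mouse brain. The members were Gria1 to Gria4 for the AMPA receptor and Grin1, Grin2a, Grin2b, Grin2c, Grin2d and Grin3a for the NMDA receptor. They were found as the probes whose gene name in the array files equals one of these symbols, which gave 17 of 39429 probes and 10 of 29608 gene names. Of the 10 genes, 7 had 2 probes and 3 (Gria1, Grin2c and Grin2d) had 1 probe.

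The 12 samples were single female mice of 3 groups, 4 each, about 12 weeks old and at diestrus per the study's methods. The MRL/lpr mice carry the lpr mutation of Fas and develop a lupus-like disease with an altered brain phenotype. The mice labelled Fn14koMRL have the same MRL/lpr background and are labelled as lacking Tnfrsf12a, which encodes Fn14, the receptor of the cytokine TWEAK. They came from the 8th backcross and from the same supplier as the MRL/lpr mice. The MRL/MpJ mice, called MRL/+ in the study, share the MRL background without the lpr mutation and came from another supplier. The question was how the strains differ in hippocampal transcription. Some of the labels' free text also names the cortex, whereas the tissue field of every sample names the hippocampus.

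AMPA receptors are tetramers of GluA1 to GluA4 (Gria1 to Gria4) that carry most of the fast excitatory current, and editing of the GluA2 transcript largely closes the channel to calcium. NMDA receptors pair the obligatory GluN1 (Grin1) with GluN2 subunits (Grin2a to Grin2d), which bind glutamate and set the kinetics, or with GluN3A (Grin3a). They admit calcium when the membrane is depolarized, and in the hippocampus both receptors serve long-term potentiation and spatial memory.

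Each probe reads 60 bases of a transcript, and some of the probes described below are shown by their central 30 bases. These are probe bases 16 to 45, 5′ to 3′ on the transcript strand, and show which stretch of a gene the values stand for. Other probes with differences described below, among them Gria3 A_52_P68221 and the Grin2d probe, are not shown. Grin2b A_52_P1044964 is shown beside the other Grin2b probe, although it met the criterion given below in no comparison. Positions are those of the whole probe in mm9, the build given in the files.

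Gria1 A_55_P2113758, chr11:57143613-57143672, plus strand: taaatatttggggtagggatttctgtctta
Gria2 A_65_P00930, chr3:80495725-80495784, minus strand: attccttggggaaaaaagaatgcactttga
Gria3 A_52_P179309, chrX:39007367-39007426, plus strand: tggattccaaaggctatggtgtggcaaccc
Gria4 A_52_P349182, chr9:4502385-4502444, minus strand: gtagagttaattacacaatggatgtgtttg
Grin1 A_65_P18935, chr2:25146927-25146986, minus strand: tctcttctgtctgcagccacaataggcttc
Grin1 A_55_P2033366, chr2:25147922-25147981, minus strand: agacacagtgctgccgcgacgcgctattga
Grin2a A_55_P1980481, chr16:9577803-9577862, minus strand: tccaatagcaccctactaggaggaagagga
Grin2b A_51_P320357, chr6:135680066-135680125, minus strand: ctcatttaaatgccaactgaaggccttgtt
Grin2b A_52_P1044964, chr6:135681653-135681712, minus strand: ggaaggccattgaacctcctgctcctaaga

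No exon or untranslated region can be given for these positions, because no annotation of mm9 was used here. Over the whole 60 bases, 4 of the 17 probes (Gria1, Gria4 A_55_P1987725, Grin2b A_51_P320357 and Grin3a A_55_P1980471) hold a stop codon in each of the 3 forward frames, so that they are not coding throughout. The other 13 have at least 1 frame without a stop. The longest run that probes of different members share is 10 bases. The 2 probes of Grin1 lie 995 bases apart and those of Grin2b 1587 bases apart, whereas those of Gria4 are 84489 bases apart. The 2 probes of Gria2 are annotated in the files to different transcripts of that gene, and so are the 2 probes of Gria4.

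Each of the 6 arrays held 2 mice of one strain, one in Cy3 (replicates 1 and 3) and one in Cy5 (replicates 2 and 4), and each strain had its own slide, so that strain and slide cannot be told apart. A level is the background-subtracted signal of a probe as a multiple of the channel's median over the 10877 spots valid in all 12 samples. It can be compared between mice for one probe but not between probes. The array with MRL/lpr replicates 3 and 4 stood apart, with channel medians of 170 and 74.7 units compared with 684 to 4545 in the other 10 samples. The tests were therefore run with all 12 samples and with the 10 samples outside that array, called the weak array below. Ranges of levels cover all 4 MRL/lpr mice unless said otherwise. In MRL/MpJ replicates 2 and 4 the negative-control spots had a median level of 0.255 and 0.187, compared with at most 0.0275 in the other 8 samples outside the weak array. Levels of that size in these 2 mice are thus no higher than those of control probes. Each member probe was well above background, by the scanner software, in at least 2 mice of every strain.

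The probe for Tnfrsf12a gave 0.169 ± 0.0172 (SD, n = 4) in mice labelled Fn14koMRL, below all mice of the other strains, yet it was well above background in 4 of those 4 mice. Whether it lies in the deleted part is not given in the sources used here, and the group is therefore called by its label throughout. The difference from MRL/MpJ was −1.45 on the log2 scale and did not pass the test (limma, adjusted p = 0.637, 12 samples, no filter on spots). The Fas probe showed no difference that passed either, at −0.99 between MRL/lpr and MRL/MpJ (adjusted p = 0.992).

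**Figure D1:**
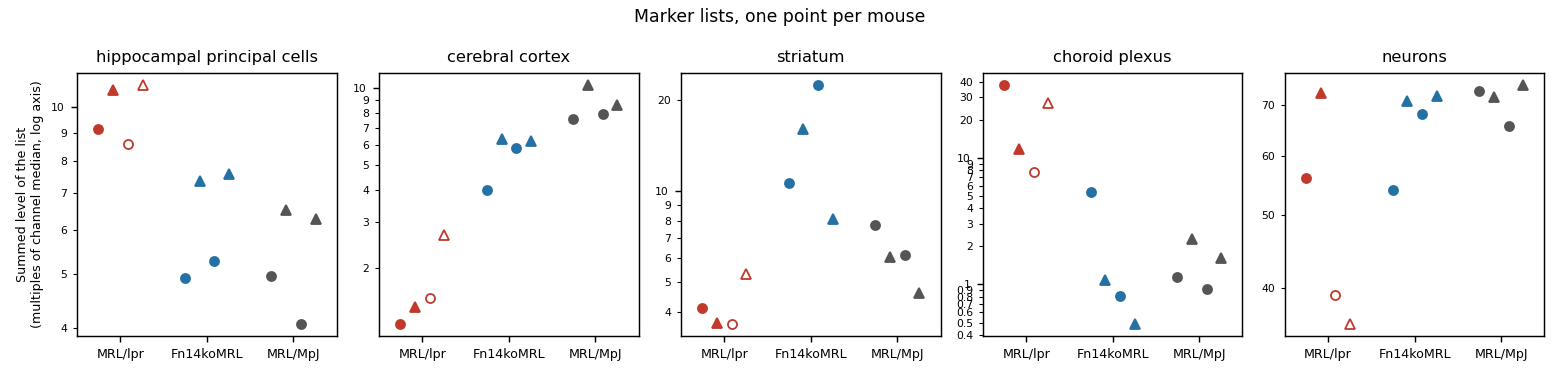
Summed levels of 5 marker lists in each mouse (vertical log axes, multiples of the channel median), by strain; circles are Cy3, triangles Cy5, open symbols the weak array. The hippocampal list lies between 8.57 and 10.96 in MRL/lpr, above all other mice, and the cortical list between 1.21 and 2.69, below all other mice. In the 2 filled MRL/lpr symbols the former is 9.13 and 10.7 and the latter 1.21 and 1.40.

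Markers of brain regions differed between the strains and belong beside every result on the members. The summed level of 9 hippocampal principal-cell genes (among them Prox1 of granule cells and Fibcd1 of CA1) was 8.57 to 10.96 in MRL/lpr. It was 9.13 and 10.7 in replicates 1 and 2, outside the weak array. In mice labelled Fn14koMRL it was 4.92 to 7.58, and in MRL/MpJ 4.07 to 6.52. The MRL/lpr means of Prox1 and Fibcd1 were 0.754 and 0.779 over 4 mice but 0.167 and 0.118 in replicates 1 and 2. Wfs1, the largest of the list, was lowest in MRL/lpr over all mice, at means of 3.38, 5.57 and 4.49 in the same order. In MRL/lpr replicates 1 and 2 its mean was 5.79. The summed level of 5 cortical genes (among them Tbr1 and Cux2) ran the other way to the hippocampal sum, at 1.21 to 2.69, 3.99 to 6.33 and 7.54 to 10.2. The summed level of 8 striatal genes reached 8.10 to 22.5 in mice labelled Fn14koMRL, compared with 3.65 to 5.32 in MRL/lpr and 4.60 to 7.72 in MRL/MpJ, and 6 choroid plexus genes reached 7.67 to 37.4 in MRL/lpr, compared with at most 5.39 elsewhere. The striatal sum was carried mainly by Penk (mean 6.16 in mice labelled Fn14koMRL) and Ppp1r1b (5.63). Over all mice Drd1 had means of 0.106, 0.103 and 0.131 in MRL/lpr, Fn14koMRL and MRL/MpJ. Drd2 and Pde10a had their lowest such mean in mice labelled Fn14koMRL. Outside the weak array the MRL/lpr means of Drd1, Drd2 and Pde10a were 0.038, 0.0263 and 0.0692, below those of Fn14koMRL (0.103, 0.0519 and 0.103). With 10 samples, 5 of 11 striatal probes rose and 0 fell in Fn14koMRL against MRL/MpJ, by the criterion given below. Of all probes 24.6% met that criterion there. None of the genes of these 4 lists was at 0, and Prox1 and Fibcd1 were well above background in only 2 of 4 mice of each of the other strains. In the same order of strains, 6 microglial genes summed to 2.53 to 5.02, 4.91 to 6.16 and 6.06 to 8.39. The 5 astrocyte genes summed to 3.85 to 9.11, 10.1 to 11.5 and 8.59 to 15.6, while the oligodendrocyte and endothelial sums overlapped between all strains. Outside the weak array the microglial sums of MRL/lpr were 4.38 and 5.02 and the astrocyte sums 8.01 and 9.11. The astrocyte sum followed S100b (means 2.35, 8.01 and 9.31), whereas Gfap ran the opposite way (2.20, 0.876 and 0.532). With 10 samples, 4 of 9 astrocyte probes rose and 1 fell in MRL/lpr against MRL/MpJ, by the criterion given below. Against Fn14koMRL 3 rose and 1 fell. Of all probes 15.3% and 6.46% met the criterion in these comparisons. The 3 thalamic genes summed to 0.488 to 1.12, 0.243 to 0.332 and 0.267 to 0.733, and the 3 cerebellar genes to 0.294 to 1.51, 0.399 to 0.485 and 0.607 to 1.47. Outside the weak array the thalamic sums of MRL/lpr were 1.05 and 1.12 and the cerebellar sums 0.294 and 0.389. The summed level of 8 general neuronal genes was 35.8 to 72.7, 53.9 to 71.9 and 65.7 to 74.4. In MRL/lpr it was 56.1 and 72.7 outside the weak array and 39.2 and 35.8 on it. The part of these differences in the members' results was not tested, and in bulk tissue fewer cells of a type and less RNA per cell cannot be told apart.

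With all 12 samples and array as a random block (correlation 0.706 within an array), 9 member probes of 7 genes could be tested among 10201 probes, those with spots valid in every sample. None passed the threshold, an adjusted p of 0.05 over all probes, in any comparison. Over all probes tested, 0.0882% passed for MRL/lpr against MRL/MpJ, 0.0294% for MRL/lpr against Fn14koMRL and 0% for Fn14koMRL against MRL/MpJ. At an unadjusted p under 0.05, 1691, 1779 and 371 of the 10201 probes passed. In the same fit without the array block, 5, 1 and 1 of the 9 member probes passed, beside 9.35%, 3.56% and 0.745% of all probes. The 4 levels of one strain lay wholly apart from the 4 of the other for 5, 4 and 3 of the 9 probes, beside 16.1%, 21.3% and 20.2% of all probes.

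With the 10 samples, 16 member probes of all 10 genes could be tested among 23488 probes, and the correlation within an array was −0.43, which narrows the errors of the fit with the block. In that fit 9, 9 and 10 of the 16 passed, beside 38.9%, 16.6% and 51.1% of all probes. A probe is here said to have risen or fallen only if it passed both with and without the block. That held for 7 member probes in MRL/lpr against MRL/MpJ (15.3% of all probes), 4 in MRL/lpr against Fn14koMRL (6.46%) and 9 in Fn14koMRL against MRL/MpJ (24.6%). The MRL/lpr group then holds 2 mice of 1 array. With 1 of them left out, the remaining mouse is assumed to vary like those of the other strains. In the fit with the block, 1 member probe (Gria1) then passed against MRL/MpJ without replicate 2 and 7 without replicate 1. Against Fn14koMRL 1 probe (Gria1) passed without replicate 1 and 2 without replicate 2. All probes together were shifted by −0.30, 0.06 and −0.37 on the log2 scale in the 3 comparisons. The medians over the 16 member probes were −0.54, 0.14 and −0.61. With each channel divided by its median over the spots valid in the 10 samples, the shift of all probes was −0.14, −0.03 and −0.11.

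**Figure D2:**
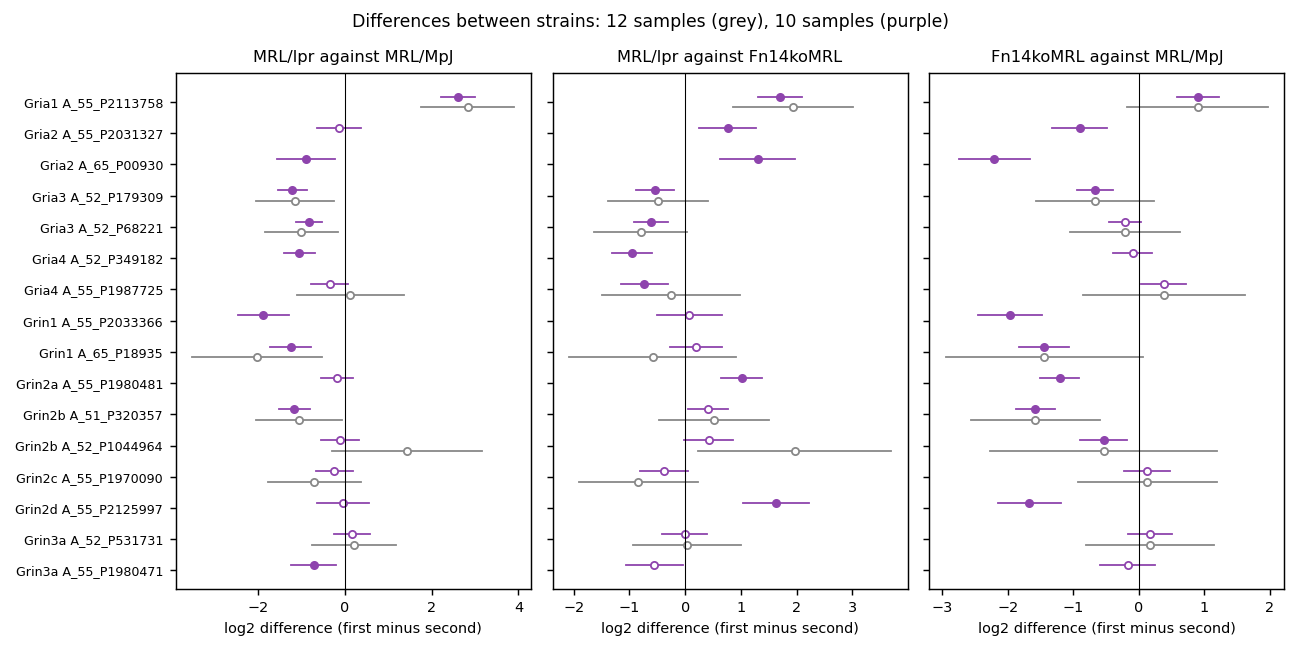
Log2 difference of each testable member probe in the 3 comparisons (horizontal axis, first minus second strain) with its 95% interval; grey, all 12 samples; purple, the 10 samples outside the weak array; filled points passed the threshold in the fit with the array block. Gria1 in MRL/lpr against MRL/MpJ lies at 2.83 with 12 samples and 2.60 with 10, to the right of all other member probes in that comparison.

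Among the AMPA receptor subunits, with 10 samples, Gria1 in MRL/lpr exceeded that of both other strains, both Gria3 probes were lower than in MRL/MpJ, and 1 of the 2 Gria4 probes was lower than in both. Gria1 encodes GluA1, the subunit inserted at synapses during potentiation. Its level was 2.30, 1.70, 3.66 and 2.01 in MRL/lpr replicates 1 to 4. It was 0.719, 0.540, 0.632 and 0.549 in mice labelled Fn14koMRL and 0.546, 0.199, 0.495 and 0.208 in MRL/MpJ. All 4 MRL/lpr mice thus stood above all 8 others, the 2 of the weak array included. Replicate 4 of MRL/lpr was however below the 95th percentile of its negative controls (2.55). The 2 low MRL/MpJ values are those at the level of the negative controls. The mean of MRL/lpr was 6.67 times that of MRL/MpJ and 3.96 times that of the mice labelled Fn14koMRL. With 12 samples the log2 difference was 2.83 ± 0.505 (SE) from MRL/MpJ (limma, adjusted p = 0.0533) and 1.93 ± 0.505 from Fn14koMRL (adjusted p = 0.276). With 10 samples it was 2.60 ± 0.183 (adjusted p = 3.59e-07) and 1.70 ± 0.183 (adjusted p = 2.96e-05), and Gria1 rose in both comparisons. Between Fn14koMRL and MRL/MpJ it was 0.90 ± 0.150 (adjusted p = 0.000412) and rose as well. That last value was 0.38 in the Cy3 samples alone and 2.67 after subtraction of the negative controls, and the value between MRL/lpr and MRL/MpJ was 2.15 and 4.39. After the latter step the difference between MRL/lpr and Fn14koMRL, 1.72, no longer passed. The hippocampal marker list was also highest in MRL/lpr. Between Fn14koMRL and MRL/MpJ it did not move with Gria1, since 0 of its 8 probes rose and 2 fell with 10 samples. Of all probes 24.6% met the criterion there.

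Gria3 encodes GluA3, which pairs mainly with GluA2. Its probe A_52_P68221 gave 1.13, 1.02, 0.839 and 0.830 in MRL/lpr, 1.32, 1.93, 1.53 and 1.89 in mice labelled Fn14koMRL and 1.86, 2.03, 1.71 and 2.05 in MRL/MpJ. The MRL/lpr mice were all below both other strains, which overlapped. Replicates 3 and 4 of MRL/lpr, of the weak array, were below the 95th percentile of their negative controls (1.51 and 2.55). The second probe, A_52_P179309, gave 0.304, 0.312, 0.272 and 0.409 in MRL/lpr, 0.346, 0.559, 0.374 and 0.557 in mice labelled Fn14koMRL and 0.585, 0.792, 0.682 and 0.824 in MRL/MpJ. Here all MRL/MpJ mice were above all others. The same limit held for MRL/lpr replicates 3 and 4, which were not well above background in this probe. Against MRL/MpJ both probes fell in MRL/lpr, by 0.83 ± 0.141 (adjusted p = 0.000611) and 1.21 ± 0.158 (adjusted p = 7.58e-05) on the log2 scale with 10 samples, compared with −1.01 ± 0.392 and −1.16 ± 0.422 with 12, which did not pass. The probe A_52_P179309 also fell in Fn14koMRL against MRL/MpJ (−0.67 ± 0.129, adjusted p = 0.00101), but this value was −0.26 and did not pass with the software's processed signal. The other probe differed there by −0.21 and did not pass. Between MRL/lpr and Fn14koMRL the probes differed by −0.62 ± 0.141 and −0.54 ± 0.158, which passed with the block (adjusted p = 0.00756 and 0.0298) and not without it.

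Gria4 encodes GluA4, abundant in interneurons of the hippocampus. Its probe A_52_P349182 gave 0.169, 0.194, 0.107 and 0.237 in MRL/lpr, 0.326, 0.426, 0.2997 and 0.366 in mice labelled Fn14koMRL and 0.348, 0.464, 0.303 and 0.406 in MRL/MpJ. MRL/lpr replicates 1 and 2 were below all 8 mice of the other strains. Replicates 3 and 4, of the weak array, were not well above background, so that nothing is read from them and the probe was tested with 10 samples only. It fell in MRL/lpr by 1.05 ± 0.167 against MRL/MpJ (adjusted p = 0.000363) and by 0.96 ± 0.167 against Fn14koMRL (adjusted p = 0.00126). With the software's processed signal the former was −0.56 and did not pass. Between Fn14koMRL and MRL/MpJ it differed by −0.10 (95% interval −0.39 to 0.20). The second probe, A_55_P1987725, ranged from 0.252 to 0.529 in MRL/lpr, 0.359 to 0.519 in mice labelled Fn14koMRL and 0.219 to 0.459 in MRL/MpJ. With all mice it overlapped between all strains. Outside the weak array the MRL/lpr levels were 0.273 and 0.252, below all mice labelled Fn14koMRL. With 10 samples that difference was −0.73, which passed with the block (adjusted p = 0.0197) and not without it. Between MRL/lpr and MRL/MpJ the probe differed by −0.36 with 10 samples and 0.12 with 12. It met the criterion in no comparison.

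Gria2 encodes GluA2, the subunit whose edited form keeps calcium out. Neither of its probes had spots valid in all 12 samples, and both were tested with 10. A_65_P00930 gave 0.0815, 0.198, 0.180 and 0.278 in MRL/lpr, 0.0523, 0.0908, 0.0322 and 0.0463 in mice labelled Fn14koMRL and 0.156, 0.502, 0.122 and 0.334 in MRL/MpJ. All mice labelled Fn14koMRL were below all MRL/MpJ mice, and the probe fell by 2.20 ± 0.255 between them (adjusted p = 3.32e-05, 10 samples), or by 2.19 after subtraction of the negative controls. The difference between MRL/lpr and Fn14koMRL, 1.30 ± 0.312, passed with the block (adjusted p = 0.0103) and not without it. The same held between MRL/lpr and MRL/MpJ, at −0.90 (adjusted p = 0.0341 with the block). A_55_P2031327 ranged from 0.118 to 0.339, 0.0619 to 0.0941 and 0.0861 to 0.237. Its fall between Fn14koMRL and MRL/MpJ (−0.90 ± 0.196, adjusted p = 0.00225) turned to 0.55 after subtraction of the negative controls, so that no direction is given for it. Between MRL/lpr and Fn14koMRL this probe differed by 0.76, which passed with the block (adjusted p = 0.0423) and not without it.

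**Figure D3:**
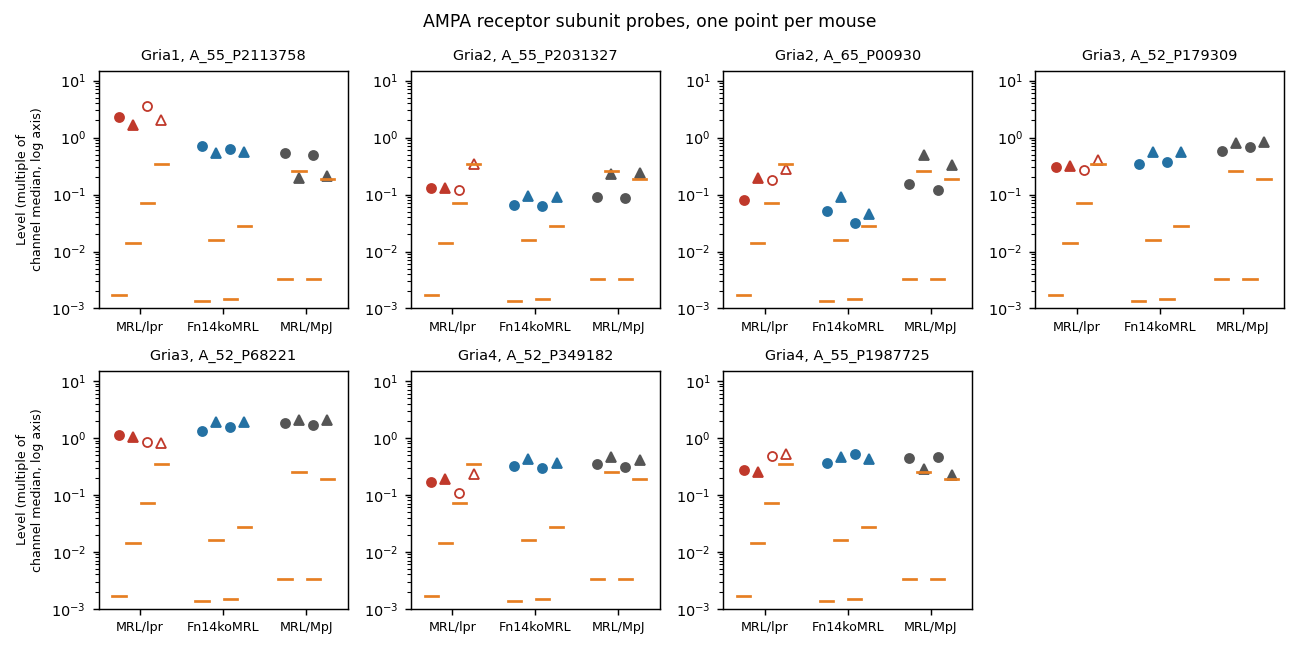
Level of each AMPA receptor subunit probe in every mouse (vertical log axis, multiple of the channel median), by strain; circles are Cy3, triangles Cy5, open symbols the weak array, and the orange dash is the median level of the negative-control spots in that sample. The 4 Gria1 points of MRL/lpr lie above the other 8, and 2 MRL/MpJ points lie at their dashes.

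Among the NMDA receptor subunits, outside the weak array, both Grin1 probes and 1 of the 2 Grin2b probes were highest in MRL/MpJ, and the 1 testable Grin2a probe was lowest in mice labelled Fn14koMRL. Grin1 encodes GluN1, without which no NMDA receptor reaches the membrane. Its probe A_65_P18935 gave 2.60, 2.12, 0.964 and 0.662 in MRL/lpr replicates 1 to 4. It gave 1.98, 1.79, 3.14 and 1.60 in mice labelled Fn14koMRL and 4.91, 6.09, 3.71 and 8.84 in MRL/MpJ. All MRL/MpJ mice were above all others. The 2 MRL/lpr mice of the weak array were the lowest of all, and both were below the 95th percentile of their negative controls (1.51 and 2.55). With 10 samples it fell by 1.25 ± 0.218 in MRL/lpr (adjusted p = 0.000721) and by 1.45 ± 0.178 in Fn14koMRL (adjusted p = 5.25e-05), each against MRL/MpJ. With 12 samples these differences were −2.03 ± 0.706 and −1.45 ± 0.706 and did not pass. Within one dye they were −0.71 and −0.78 in the Cy3 samples and −1.79 and −2.12 in the Cy5 samples. Between MRL/lpr and Fn14koMRL it differed by 0.19 (95% interval −0.28 to 0.66).

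The other Grin1 probe, A_55_P2033366, gave 0.0595, 0.0785, 0.134 and 0.651 in MRL/lpr, 0.0371, 0.0736, 0.0719 and 0.0896 in mice labelled Fn14koMRL and 0.136, 0.470, 0.162 and 0.398 in MRL/MpJ. The high value of MRL/lpr replicate 4 is from the weak array, where the negative controls had a median of 0.341. Outside that array the probe fell by 1.89 ± 0.276 in MRL/lpr (adjusted p = 0.000186) and by 1.97 ± 0.225 in Fn14koMRL (adjusted p = 3.08e-05) against MRL/MpJ. Against MRL/MpJ both probes of Grin1 thus moved in the same direction, and so did the cortical marker list, which was highest in MRL/MpJ. Between MRL/lpr and Fn14koMRL they did not move together. There, with 10 samples, A_65_P18935 and A_55_P2033366 differed by 0.19 and 0.08 and did not pass. In that comparison 6 of 8 cortical probes fell (median −1.69), beside 6.46% of all probes that met the criterion. The part of the cortical list in the Grin1 results was not tested.

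Grin2b encodes GluN2B, which prevails early in development and gives slow currents. Its probe A_51_P320357 gave 0.617, 0.537, 0.803 and 0.555 in MRL/lpr, 0.475, 0.467, 0.325 and 0.486 in mice labelled Fn14koMRL and 1.23, 1.55, 1.08 and 1.36 in MRL/MpJ. The 3 strains did not overlap, but the levels of MRL/lpr replicates 3 and 4 were below the 95th percentile of their negative controls (1.51 and 2.55). It fell by 1.17 ± 0.168 in MRL/lpr (adjusted p = 0.00017) and by 1.58 ± 0.137 in Fn14koMRL (adjusted p = 3.92e-06) against MRL/MpJ with 10 samples, whereas −1.06 ± 0.463 and −1.58 ± 0.463 with 12 did not pass. Between MRL/lpr and Fn14koMRL it differed by 0.41 ± 0.168 and did not pass. The second probe, A_52_P1044964, gave 0.329 and 0.2996 in MRL/lpr replicates 1 and 2 but 2.19 and 3.31 in replicates 3 and 4. It ranged from 0.191 to 0.317 in mice labelled Fn14koMRL and from 0.265 to 0.448 in MRL/MpJ. Its difference between MRL/lpr and MRL/MpJ was therefore 1.43 ± 0.812 with the weak array and −0.12 ± 0.203 without it, and neither passed. Of the 2 Grin2b probes, only A_51_P320357 met the criterion in any comparison.

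Grin2a encodes GluN2A, which prevails in the adult and gives faster currents. Its probe A_55_P1980481 gave 0.416, 0.422, 0.188 and 0.305 in MRL/lpr, 0.152, 0.290, 0.155 and 0.270 in mice labelled Fn14koMRL and 0.410, 0.532, 0.411 and 0.590 in MRL/MpJ. The mice labelled Fn14koMRL were all below MRL/MpJ and below MRL/lpr replicates 1 and 2, and 1 of the 2 mice of the weak array lay within their range. The probe fell by 1.21 ± 0.140 in Fn14koMRL against MRL/MpJ (adjusted p = 3.32e-05) and was 1.02 ± 0.172 higher in MRL/lpr than in Fn14koMRL (adjusted p = 0.000977), whereas MRL/lpr and MRL/MpJ differed by −0.19 (95% interval −0.56 to 0.17). The other probe, A_55_P1974035, had levels of 0.00829 to 0.215 over all mice and was above the 95th percentile of the negative controls in 5 of 12. It was valid in neither set of samples, and in the fit of all 12 samples with no filter on spots it differed by −1.65 ± 1.13 between Fn14koMRL and MRL/MpJ (adjusted p = 0.637).

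Of the remaining subunits, Grin2c and Grin3a met the criterion in no comparison. Grin2c, whose GluN2C is known from the cerebellum and from astrocytes, ranged from 0.635 to 1.27 in MRL/lpr, 1.29 to 2.17 in mice labelled Fn14koMRL and 1.03 to 1.92 in MRL/MpJ. The low MRL/lpr values, 0.657 and 0.635, were those of the weak array, and with 10 samples the difference from MRL/MpJ was −0.25 (95% interval −0.68 to 0.18). Grin3a, whose GluN3A lowers calcium entry, ranged in its probe A_52_P531731 from 0.371 to 0.507, 0.2999 to 0.480 and 0.241 to 0.526. Its 3 differences with 10 samples were 0.16, −0.01 and 0.17, with 95% intervals inside −0.42 to 0.57. The other Grin3a probe, A_55_P1980471, was at the level of the negative controls in MRL/MpJ replicates 2 and 4.

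Grin2d encodes GluN2D, found in the hippocampus mainly in interneurons. Its level was 0.104, 0.154, 0.129 and 0.147 in MRL/lpr, 0.0546, 0.0399, 0.0336 and 0.0389 in mice labelled Fn14koMRL and 0.0855, 0.203, 0.0882 and 0.191 in MRL/MpJ. Outside the weak array, the mice labelled Fn14koMRL lay below all others. The values of MRL/MpJ replicates 2 and 4 are at the negative controls. Grin2d rose in MRL/lpr against Fn14koMRL (1.63 ± 0.278, adjusted p = 0.00105) and fell in Fn14koMRL against MRL/MpJ (−1.67 ± 0.227, adjusted p = 0.000104). After subtraction of the negative controls the first difference was 2.27 and passed, and the second was −0.21 and did not. Between MRL/lpr and MRL/MpJ it was −0.04 and did not pass, but 2.07 after that subtraction, so that no direction is given for this comparison. With the software's processed signal they were 2.21, which passed, and −0.81, which did not.

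**Figure D4:**
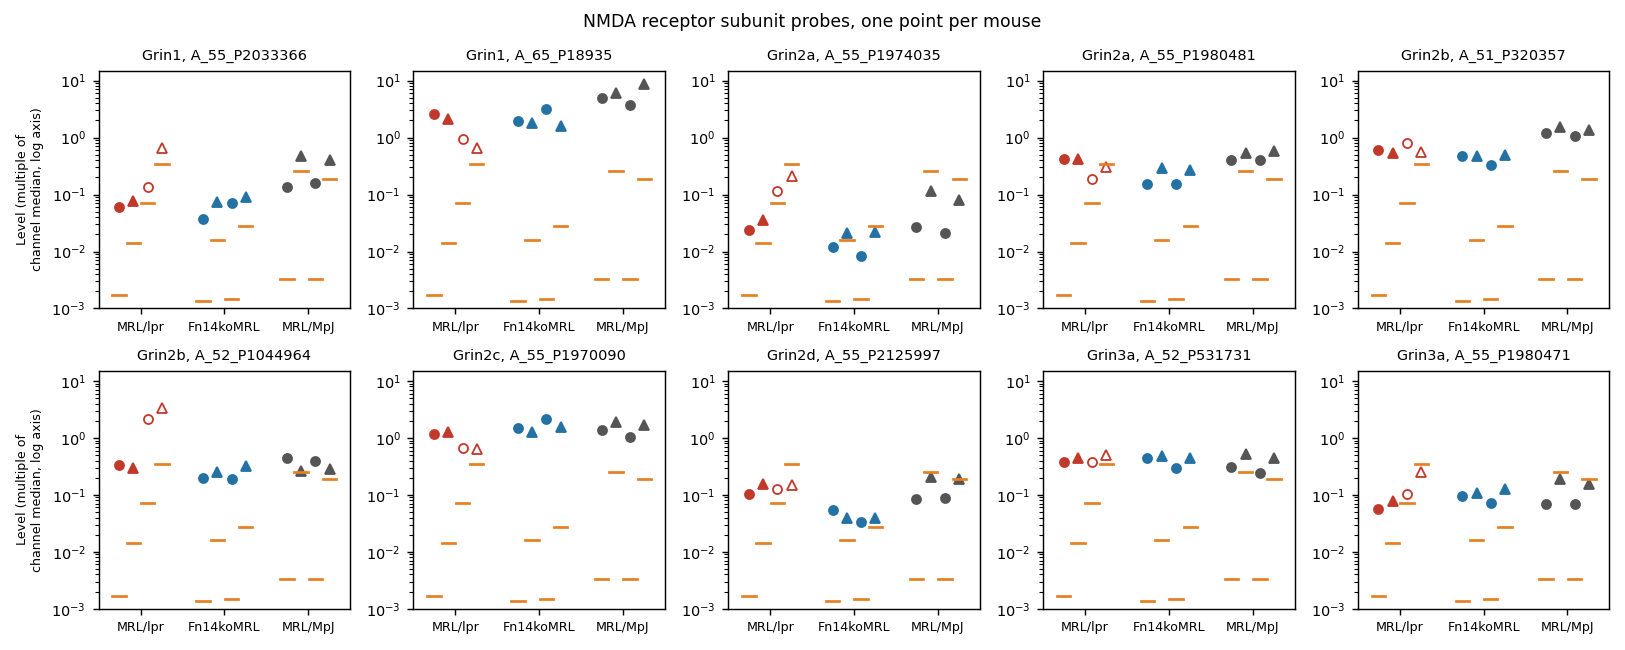
Level of each NMDA receptor subunit probe in every mouse, drawn as for the AMPA receptor subunits (vertical log axis, multiple of the channel median; orange dash, median of the negative controls). Both Grin1 probes and Grin2b A_51_P320357 are highest in MRL/MpJ outside the weak array, and Grin2b A_52_P1044964 is high only in the 2 open symbols.

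Subunit ratios were compared within each mouse as the difference of log2 levels of 2 genes, which does not depend on how a channel is scaled. A gene was taken as the mean over its probes with spots valid in all 12 samples. Gria2 and Grin2a had no such probe and were taken over all their probes. A ratio's own value depends on the probes, and only its difference between strains is read. Of 9 tests (3 ratios in 3 comparisons, two-sided exact permutation of 4 mice against 4, smallest possible p 0.0286), none passed after Benjamini-Hochberg adjustment over the 9. The log2 Gria1/Gria2 ratio was 4.48, 3.40, 4.65 and 2.71 in MRL/lpr, 3.61, 2.55, 3.83 and 3.09 in mice labelled Fn14koMRL and 2.21, −0.78, 2.27 and −0.43 in MRL/MpJ. The MRL/MpJ mice were all below the other 8. The difference from MRL/lpr was 2.99 and that from Fn14koMRL 2.45, each with an exact p of 0.0286 and an adjusted p of 0.129, higher in 4 of 4 mice. The 2 lowest values are those of the MRL/MpJ channels in which Gria1 was at the negative controls, and with the 2 Gria2 probes taken singly the difference between MRL/lpr and MRL/MpJ was 2.66 and 3.33.

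The Gria2/Grin1 ratio was higher in MRL/lpr by 1.87 than in MRL/MpJ (exact p = 0.0571, adjusted p = 0.171) and by 1.98 than in Fn14koMRL (exact p = 0.0857, adjusted p = 0.193), and without the weak array by 0.73 and 0.84. Its values were −4.66, −3.72, −2.72 and −1.11 in MRL/lpr, the last 2 from the weak array, compared with −6.14 to −4.28 in mice labelled Fn14koMRL and −5.38 to −4.15 in MRL/MpJ. With 12 samples the Grin2a/Grin2b ratio differed by −0.24 between MRL/lpr and MRL/MpJ, 0.13 between MRL/lpr and Fn14koMRL and −0.37 between Fn14koMRL and MRL/MpJ, with an adjusted p of at least 0.557. Without the weak array the first 2 were 0.19 and 0.56. Here Grin2a includes A_55_P1974035, which was valid in neither set of samples, and Grin2b includes A_52_P1044964, high only in the weak array. The direction of the ratio also depended on the pair of probes. Between MRL/lpr and MRL/MpJ it was 0.46 with Grin2b A_51_P320357 and −2.03 with A_52_P1044964, both against Grin2a A_55_P1980481. Without the weak array these were 0.97 and −0.077. With 10 samples, 2 mice against 4 cannot give a p below 0.0667, and no ratio passed.

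**Figure D5:**
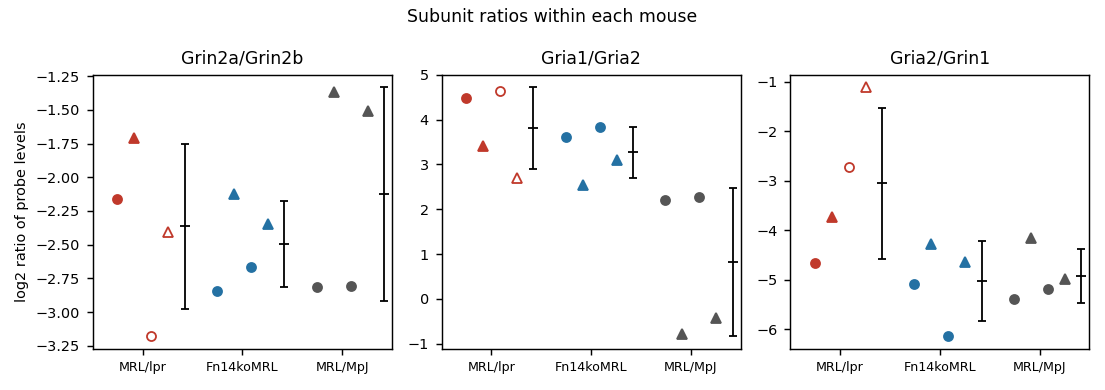
Log2 ratio of the levels of 2 subunit genes within each mouse (vertical axis), by strain; circles are Cy3, triangles Cy5, open symbols the weak array, and bars give the mean and SD of 4 mice. Gria1/Gria2 is lowest in MRL/MpJ, where the 2 Cy5 mice lie at −0.78 and −0.43.

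The genes that accompany the receptors were read from 5 lists, with the 10 samples and the same criterion as for the members. Over all 23488 probes, 15.3% met it in MRL/lpr against MRL/MpJ (1020 of 3601 risen) and 6.46% against Fn14koMRL (846 of 1517 risen). In Fn14koMRL against MRL/MpJ 24.6% met it (1370 of 5788 risen). These shares belong beside the counts of each list. Of the 32 probes of 20 AMPA receptor auxiliary and trafficking genes, 5 rose and 9 fell in MRL/lpr against MRL/MpJ (median −0.20, compared with −0.30 over all probes), 5 rose and 4 fell against Fn14koMRL, and 0 rose and 11 fell in Fn14koMRL against MRL/MpJ. Shisa6, an auxiliary subunit that holds AMPA receptors at the synapse, rose in MRL/lpr by 3.22 ± 0.191 against MRL/MpJ (adjusted p = 9.28e-08) and by 2.96 ± 0.191 against Fn14koMRL (adjusted p = 4.64e-07). It was well above background in 2 of the 4 MRL/MpJ mice. It also passed with 12 samples, at 3.75 (adjusted p = 0.0163) and 3.49 (adjusted p = 0.0279). Cacng3, encoding the TARP γ-3, fell in MRL/lpr against MRL/MpJ (−2.49 ± 0.148, adjusted p = 9.28e-08), also with 12 samples (−3.10, adjusted p = 0.0198). Gsg1l, a subunit that slows recovery from desensitization, fell in MRL/lpr against MRL/MpJ in both of its probes (−2.80 and −2.09). Grip2, a scaffold that binds GluA2 and GluA3, fell by 1.96, with 2 of 4 mice of MRL/lpr and 3 of 4 of MRL/MpJ well above background, and Pick1, which takes part in AMPA receptor endocytosis, rose by 1.17 against Fn14koMRL. The 2 probes of Cacng7 (TARP γ-7) went opposite ways in MRL/lpr, at 1.28 and −1.01 against MRL/MpJ and 3.17 and −0.85 against Fn14koMRL. In Fn14koMRL against MRL/MpJ Cacng7 (−1.90 in 1 of 2 probes), Frrs1l (−1.68, with 3 of 4 probes fallen) and Cacng3 (−1.62) fell. Cacng8 (TARP γ-8) also passed, but was well above background in 2 of 4 mice of each of these strains.

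Of the 15 probes of NMDA receptor partners, 1 rose and 6 fell in MRL/lpr against MRL/MpJ (median −0.73), 1 rose and 2 fell against Fn14koMRL, and 1 rose and 8 fell in Fn14koMRL against MRL/MpJ (median −0.73, compared with −0.37 over all probes). The scaffold genes Dlg1 (SAP97) and Dlg2 (PSD-93) fell in 3 and 2 probes in MRL/lpr against MRL/MpJ, by 0.86 to 1.77 and 1.28 to 1.75. Grin3b, encoding the glycine-binding GluN3B, is counted among the falls in MRL/lpr against both strains, but no MRL/lpr mouse had it well above background, so that no size is given. The single rise in each of these was 1 of the 2 probes of Ptk2b, a kinase that acts on the NMDA receptor (0.69 against MRL/MpJ and 1.20 against Fn14koMRL).

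Of the 8 probes of kainate and delta receptor subunits, none passed the criterion in MRL/lpr against either strain. With the block alone 6 and 2 passed, beside 38.9% and 16.6% of all probes in the fit with the block. In Fn14koMRL against MRL/MpJ 2 fell, Grid1 (−0.87) and Grik2. Grik2 was well above background in 2 of 4 MRL/MpJ mice and 3 of 4 mice labelled Fn14koMRL and is given no size. Of 12 probes for glutamate release, uptake and synthesis, 4 fell in MRL/lpr against MRL/MpJ, among them Slc17a7, the vesicular transporter VGLUT1 (−1.55 ± 0.136, adjusted p = 2.56e-06), which also fell in Fn14koMRL (−1.32 ± 0.111, adjusted p = 3.59e-06). Of the 3 probes of Slc1a2, the glial transporter GLT-1, 2 fell, by 0.96 and 1.48, and the other differed by −0.40. Of 11 probes of AMPA receptor editing and clustering genes, Nptx2, a secreted pentraxin that gathers AMPA receptors, fell in MRL/lpr in both probes against MRL/MpJ (−2.70 and −2.68) and against Fn14koMRL (−1.95 and −1.64). Lrrtm1, a synaptic adhesion gene, rose by 1.35 and 1.30. These lists stood beside region markers that moved as well. In MRL/lpr against MRL/MpJ, 8 of 8 cortical probes fell (median −2.72) and 4 of 8 hippocampal probes rose (median 1.33). Of all probes 15.3% met the criterion in that comparison. The part of the region markers in these results was not tested.

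The genes whose pattern over the 10 samples was most like that of a member were taken by Pearson's r of log2 levels over the 23488 probes. For Gria2 A_65_P00930 these were P2rx3 (r = 0.994), Sbno1 (r = 0.987) and Mybl2 (r = 0.987). For Grin1 A_65_P18935 they were Rtl6 (r = 0.980), Jmjd8 (r = 0.980) and Eri3 (r = 0.978). The 10 points share 5 arrays, 3 strains and 2 dyes.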

How the data were processed

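RNA of 12 mice was hybridized to 6 Agilent 2-colour arrays of 60-base probes. The authors processed the scans with Agilent Feature Extraction 12.1.0.3, per the file headers, and the deposited values used here are each spot's foreground and background intensity on a linear scale, with outlier and background flags. From these, spots with a foreground under 2 times the local background or an outlier flag were left out, the background was subtracted, channels were scaled by their median over the 10877 spots valid in all 12 samples, signals under 1% of that median were set to 1% for the tests (printed levels have no floor), and spots of a probe were averaged. Log2 values were tested with limma 3.58.1 (statmod 1.5.0, R 4.3.3; dye as covariate, array as random block, trend, Benjamini-Hochberg over all probes). Python 3.11.15, scipy 1.17.1 and matplotlib 3.10.9 did the rest. The fit was tested on simulated data.

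The named genes are all members, Tnfrsf12a and Fas, up to 4 genes per partner list and comparison, and the 3 genes most like Gria2 and Grin1. The members and lists were chosen with earlier results of these data known, and the criterion of passing with and without the block was added after the fits were seen. Replicates are separate mice, 2 on each array. The precision is limited by the 6 arrays. Alternatives covered scaling, background, filters, dyes, weights, single replicates and arrays, and the methods' t-test. The 10 members matched 10 genes of RefSeq (GRCm38.p6), from which no coordinate was taken. 1 gene of the striatal marker list is not reported here, and the list's values leave it out.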

Additional observations from a re-analysis of the deposited data

Results flagged for a closer look

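In 2 of the 51 groups of 4 mice (17 probes in 3 strains) 1 mouse lay far from the other 3 by Dixon's criterion at 95%, which chance meets in about 1 in 20 groups. MRL/lpr replicate 4, on the weak array, had a Gria2 A_55_P2031327 level of 0.339, compared with 0.118 to 0.130 in the other 3, and the negative-control spots of that sample had a median level of 0.341. Replicate 3 of the mice labelled Fn14koMRL had a Grin2b A_51_P320357 level of 0.325, compared with 0.467 to 0.486.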

How the results depend on the processing

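Precision was limited by 6 arrays, by 2 MRL/lpr mice once the weak array was left out, and by negative-control signal in MRL/MpJ replicates 2 and 4. The causes of the shifts below were not tested. Where no result over all probes stands beside a count, the count shows only how the calls depend on the processing.

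With all 12 samples, 0 member probes passed in each comparison. For MRL/lpr against MRL/MpJ the count was 5 without the array block, 1 with 75th percentile scaling or no filter on spots, 4 with array weights (0.0621 and 0.0534 for MRL/lpr replicates 3 and 4), 8 without the array of MRL/lpr replicates 1 and 2, 5 without the weak array, and 0 to 1 with single mice left out. For MRL/lpr against Fn14koMRL it was 1 without the block, 1 with array weights, 7 and 4 without either MRL/lpr array, and 0 with single mice left out. For Fn14koMRL against MRL/MpJ it was 1, 4, 5 and 5 in the same order, 5 with only these strains fitted, and 0 with single mice left out. The methods' t-test at its unadjusted threshold gave 5, 4 and 3, with the fold criterion 5, 2 and 2, and after Benjamini-Hochberg 0 in each. Over all 10201 probes it gave 16.1%, 13.4% and 17.3% at the unadjusted threshold. With the fold criterion it gave 477, 351 and 619 probes, and after Benjamini-Hochberg 0, 0 and 9.

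With 10 samples the counts were 9, 9 and 10. For MRL/lpr against MRL/MpJ the count was 1 in the Cy3 samples, 5 with genes in place of probes and 1 to 9 with single mice left out. For MRL/lpr against Fn14koMRL it was 4 without the block (and both with and without it, and with array means), 5 with the processed signal or negative-control subtraction, 4 with probes well above background throughout, 3 with only these strains fitted, 1 in the Cy3 samples and 1 to 11 with single mice left out. For Fn14koMRL against MRL/MpJ it was 6 with probes well above background throughout, 0 in the Cy3 samples and 9 to 11 with single mice left out. The methods' t-test gave 5, 5 and 4, with the fold criterion 1, 1 and 3, and after Benjamini-Hochberg 0 in each. Over all 23488 probes it gave 13.5%, 16.3% and 13.7% at the unadjusted threshold. With the fold criterion it gave 643, 552 and 1210 probes, and after Benjamini-Hochberg 0, 1 and 9.

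The replicate numbers were not taken to pair the mice, since deviations of same-numbered mice correlated from −0.376 to 0.478, with 8 of 12 pairs over 0.1, and the numbers also follow the dye. With the replicate block, 0, 0 and 0 member probes passed with 12 samples and 9, 7 and 11 with 10.

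The median log2 difference over member probes with 12 samples was −0.71 for MRL/lpr against MRL/MpJ. It was −1.01 with probes well above background throughout, −0.47 with array weights, −0.43 in Cy3, −0.99 in Cy5, 0.077 with genes in place of probes, −0.95 and −0.36 without either MRL/lpr array, and −0.89 to −0.56 with single mice left out. For MRL/lpr against Fn14koMRL, −0.26 became −0.84 with quantile normalization, 0.52 with no filter, −0.80 with probes well above background, 0.11 with array weights, 0.081 and −0.011 without either MRL/lpr array, −0.55 with negative-control subtraction, and −0.44 to −0.087 with single mice left out. For Fn14koMRL against MRL/MpJ, −0.21 became 0.053 with the processed signal, −0.67 with no filter, 0.13 with genes, 0.048 with negative-control subtraction, and −0.31 to −0.11 with single mice left out.

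With 10 samples the median for MRL/lpr against MRL/MpJ, −0.54, became −0.22 with quantile normalization, −0.34 with normexp and loess, −0.025 with the processed signal, −0.71 with no filter, −0.98 with probes well above background, −0.93 in Cy5, −0.39 with genes, −0.38 with channel medians over spots valid in 10 samples, −0.17 with negative-control subtraction, and −0.73 to −0.47 with single mice left out. For MRL/lpr against Fn14koMRL it ran from −0.092 to 0.41 with single mice left out. For Fn14koMRL against MRL/MpJ, −0.61 became −0.28 with quantile normalization, −0.27 with normexp and loess, −0.16 with the processed signal, −0.94 with probes well above background, −0.35 with the 10-sample channel medians and −0.079 with negative-control subtraction.

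Among single probes that passed in the fit with the block, 5 values changed direction. Between Fn14koMRL and MRL/MpJ, Grin2b A_52_P1044964 became 0.044 in Cy5 and 0.62 with negative-control subtraction, and Gria2 A_55_P2031327 became 0.55 with that subtraction. Between MRL/lpr and MRL/MpJ, Grin3a A_55_P1980471 became 0.63 with the processed signal and 1.20 with negative-control subtraction. Values that had not passed also changed sign. With 10 samples, Grin2d in MRL/lpr against MRL/MpJ kept it in 17 of 26 alternatives and passed the opposite way in 2 (up to 2.07), Grin3a A_55_P1980471 in Fn14koMRL against MRL/MpJ kept it in 20 of 26 and passed the opposite way in 4, and Gria2 A_55_P2031327 in MRL/lpr against MRL/MpJ kept it in 19 of 26. Array means and negative-control subtraction were chosen after seeing the data.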
